A study of Mus musculus with 8 samples.

Results

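The interleukin-1 (IL-1) family and its receptors were examined in 4 mouse mammary tumour lines. The 9 genes described, of 27179 in the count table, were chosen by symbol. They are the ligand genes Il1a, Il1b, Il18 and Il33, the receptor antagonist gene Il1rn, and the receptor genes Il1r1, Il1r2, Il1rl1 and Il1rap. Il1rl1, which encodes the IL-33 receptor ST2, was selected on its large difference between these lines, and its differences between lines are therefore given as a description with no test. The other 8 genes were listed with earlier results of the same libraries known.

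The lines 4T1.2, 4T1, 66cl4 and 67NR are isogenic mammary tumour lines of BALB/c mice, and 4T1.2 is a single-cell clone of 4T1 that spreads to bone. 4T1 cells also spread widely, 66cl4 cells mainly to the lung, and 67NR cells form primary tumours with little spread. The cells carried no engineered allele that the labels name and received no treatment, and 2 biological replicates of each line gave 8 RNA-seq libraries. Each group is 1 line, or 2 in the pooled comparison, so a difference between groups cannot be told apart from a difference particular to those lines. The labels do not say whether replicates were separate cultures, so p-values measure the spread between these samples. Library totals ran from 37159840 to 66269681 counts. Levels are given as CPM, the counts per 1000000 counts of the TMM-scaled library size, or per kilobase of counted gene length (RPKM) where genes are compared with each other. Log2 fold changes, their standard errors (SE) and adjusted p-values come from the quasi-likelihood test of edgeR, with p-values adjusted over 13925 genes by the Benjamini-Hochberg method, at a threshold of 0.05. In the pooled comparison, 4T1 and 4T1.2 together were set against 66cl4 and 67NR together, by the averages of their fitted line means. Its p-values use the spread between replicates of a line and leave out differences between the 2 lines of a group.

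IL-1 alpha and IL-1 beta signal through the receptor IL-1R1, which must pair with the accessory protein encoded by Il1rap before its adaptor MyD88 can activate NF-kappaB. IL-33, a nuclear cytokine released from damaged epithelial and stromal cells, binds ST2 and uses the same accessory protein, while IL-18 signals through a related receptor pair encoded by Il18r1 and Il18rap. The decoy receptor encoded by Il1r2 and the antagonist encoded by Il1rn dampen IL-1 signalling, and a soluble form of ST2 captures IL-33. In mammary tumours, IL-1 is known for inducing inflammatory cytokines and chemokines, including the granulocyte factor G-CSF.

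Il1rl1 and Il1r1 lie in the receptor cluster of chromosome 1 and had opposite patterns across the lines, so the sequence before 2 annotated starts of each gene is shown. Both starts lie inside the gene, which begins at 40404864 for Il1rl1 and at 40222480 for Il1r1. No window before those positions is shown. The 250 bases that precede each start were taken from RefSeq (build GRCm38.p6, plus strand). For Il1rl1 they span chr1:40429320-40429569 for the first start and chr1:40439379-40439628 for the second. For Il1r1 they span chr1:40224830-40225079 and chr1:40266336-40266585. Capitals mark a match to the GATA motif AGATAA on either strand.
Il1rl1 start 1: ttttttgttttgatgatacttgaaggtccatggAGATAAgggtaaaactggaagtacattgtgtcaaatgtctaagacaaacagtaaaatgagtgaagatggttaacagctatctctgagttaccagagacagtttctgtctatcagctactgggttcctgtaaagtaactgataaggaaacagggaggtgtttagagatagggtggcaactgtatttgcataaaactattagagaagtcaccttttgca
Il1rl1 start 2: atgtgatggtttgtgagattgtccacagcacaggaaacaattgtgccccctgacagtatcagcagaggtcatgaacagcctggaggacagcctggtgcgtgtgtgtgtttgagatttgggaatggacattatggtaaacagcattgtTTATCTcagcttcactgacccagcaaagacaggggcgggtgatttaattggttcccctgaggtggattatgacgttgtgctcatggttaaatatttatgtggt
Il1r1 start 1: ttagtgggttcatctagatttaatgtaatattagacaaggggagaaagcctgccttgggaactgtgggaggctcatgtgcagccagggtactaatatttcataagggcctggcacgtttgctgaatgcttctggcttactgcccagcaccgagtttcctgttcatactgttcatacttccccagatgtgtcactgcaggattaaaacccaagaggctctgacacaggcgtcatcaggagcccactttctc
Il1r1 start 2: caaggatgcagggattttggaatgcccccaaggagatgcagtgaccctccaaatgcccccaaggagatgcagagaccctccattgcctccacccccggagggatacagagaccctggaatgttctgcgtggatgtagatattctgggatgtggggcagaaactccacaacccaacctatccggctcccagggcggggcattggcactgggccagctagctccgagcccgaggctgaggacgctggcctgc

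The GATA motif was found once before each Il1rl1 start shown, with 211 bases between the match and the first of them and 97 bases before the second. It was found in neither Il1r1 window, and in 9.99% of 32851 promoter windows of the same length. Neither gene had a match in these windows to the TATA box TATAAA, to the AP-1 motif TGANTCA or to the NF-kappaB motif (3 G, any 2 bases, 3 T, 2 C), searched on both strands, which 12.4%, 6.75% and 1.41% of windows held. Among the ligand genes, a TATA box lay 26 bases before the start of Il1a, 25 before that of Il1b and 23 before the second start of Il33, and further off for Il18 (169 bases) and for the first start of Il33 (197 bases). Il1a also held the AP-1 motif, 5 bases before its start. Of the 3 starts of Il1rn, the first had an AP-1 match 134 bases before it and the third an NF-kappaB match 41 bases before it. These matches are a description of letters. Counts per gene do not show which start was used, nor whether the soluble or the membrane form of ST2 was made.

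The receptor side of the family was split between the lines. 4T1/4T1.2 cells had more Il1r1, which was also read in 66cl4 (942 and 907 counts) and 67NR (331 and 428 counts). 66cl4 and 67NR cells carried Il1rl1 with more Il1rap. Among the ligand genes, Il33 and Il1b were higher in 4T1/4T1.2 cells, Il18 was highest in 66cl4 cells, and Il1a and Il1rn were near or at 0 counts throughout. Of the 9 members, 7 passed the filter on low counts. Leaving Il1rl1 aside, 6 of the 6 tested members passed the threshold in the pooled comparison, beside 76.7% of all genes tested. In 4T1/4T1.2 cells 4 of these had higher levels (background 38.1% of genes) and 2 had lower ones (background 38.6%). The libraries of 4T1/4T1.2 cells and those of the other lines did not overlap for 4 of the 6, namely Il1b, Il33, Il1r1 and Il1rap, where 55.5% of all genes tested showed no overlap. Il1b, with at most 2 counts in a 66cl4 or 67NR library, passed the filter only through 4T1/4T1.2 cells. Its call, direction and lack of overlap in these counts are therefore no support. The median log2 fold change of the 6 was 2.24, against -0.01 over all genes. It is the midpoint of Il33 (1.56) and Il1r2 (2.91), and the Il1r2 value depends on how the absence of counts in 66cl4 is fitted.

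**Figure D1:**
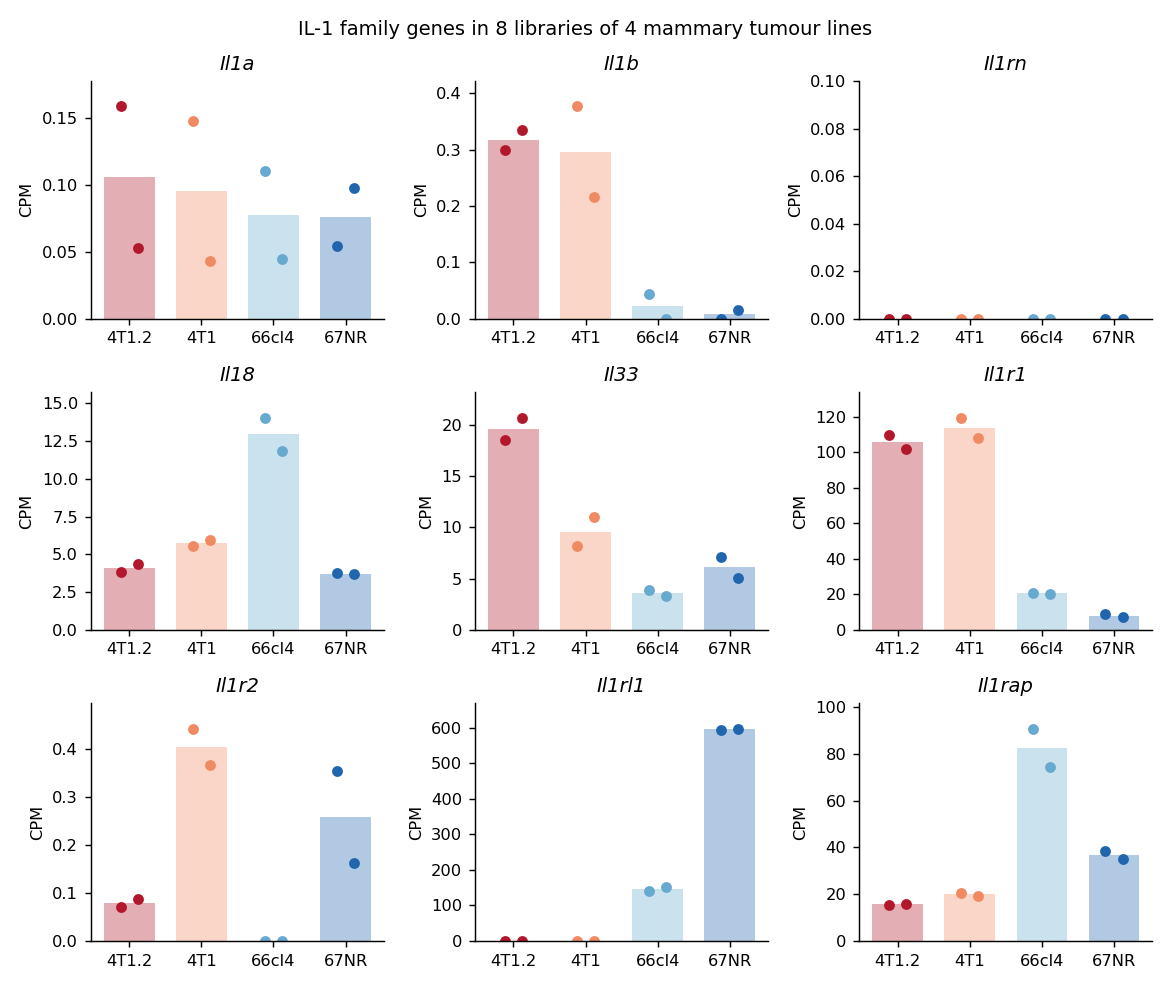
CPM of each of the 9 genes in each of the 8 libraries (points) with the mean of the 2 replicates of a line (bars), on a separate linear axis from 0 for each gene. Il1rl1 sits at 141 to 598 CPM in 66cl4 and 67NR and below 0.2 CPM in 4T1.2 and 4T1, while Il1r1 is high in the opposite pair of lines, and Il1rn has no counts.

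Il1rl1 (Entrez 17082, chromosome 1, 40404864 to 40465418, GRCm38, plus strand) was nearly silent in both 4T1.2 libraries (5 and 10 counts) and both 4T1 libraries (8 and 7 counts). The 66cl4 libraries held 6374 and 6783 counts, and the 67NR libraries 21803 and 36870. The scaled levels were 0.0880 and 0.176 CPM in 4T1.2, 0.131 and 0.151 in 4T1, 141 and 151 for 66cl4, and 595 and 598 for 67NR. The order was thus 67NR, then 66cl4, then the other two lines, whose means of 0.141 ± 0.0142 CPM in 4T1 and 0.132 ± 0.0625 in 4T1.2 (SD, n = 2) did not differ beyond their spread. In bulk RNA, fewer expressing cells and less RNA per cell cannot be told apart.

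The fitted pooled log2 fold change of Il1rl1 was -11.06 (SE 0.13), and 133 of the genes tested had a larger absolute value. Its value ran from -11.39 to -10.72 over the alternative settings. Between the 2 lines that expressed it, 67NR exceeded 66cl4 by 4.08-fold (log2 fold change of 66cl4 over 67NR -2.03, SE 0.10). Between 4T1.2 and 4T1 the log2 difference was -0.08 (SE 0.39), and it was 0.33 without 4T1.2 replicate 1 and -0.66 without 4T1.2 replicate 2, since it rested on a few counts. Per gene length, Il1rl1 reached 85.6 RPKM in 67NR, above 93.6% of the genes tested, and 21.0 RPKM in 66cl4, above 69.6%. None of its 75-base stretches (0%) was shared with transcripts of another gene.

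Il1r1 (Entrez 16177, chromosome 1, 40222480 to 40316201), the signalling receptor for IL-1, reached 110 and 102 CPM in the replicates of 4T1.2, with 120 and 108 CPM in those of 4T1. Levels in 66cl4 were 20.8 and 20.2 CPM, and in 67NR 9.03 and 6.94 CPM. The libraries of 4T1/4T1.2 cells were all well above those of the other lines. The pooled log2 fold change was 3.11 (SE 0.09, adjusted p = 8.37e-10, edgeR), and 66cl4 was in turn above 67NR by 1.37 (SE 0.13, adjusted p = 2.90e-05, edgeR). Between 4T1.2 and 4T1 no difference was detected, with a log2 fold change of -0.11, a 95% interval of -0.37 to 0.16 and an adjusted p of 0.599 (edgeR).

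Il1rap (Entrez 16180, chromosome 16, 26581509 to 26730128), the accessory protein shared by IL-1R1 and ST2, measured 15.3 and 15.9 CPM for 4T1.2, 20.6 and 19.2 in 4T1, 90.8 and 74.5 for 66cl4, with 38.5 and 35.2 for 67NR. It was present in every library and highest in 66cl4. The pooled log2 fold change was -1.64 (SE 0.08, adjusted p = 4.29e-08, edgeR). 66cl4 exceeded 67NR by 1.17 on the log2 scale (SE 0.11, adjusted p = 3.50e-05, edgeR). The gene shares 552 exon bases with Gm20319 on the opposite strand, and the sources used here do not say whether the counting used strand.

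Il1r2 (Entrez 16178, chromosome 1, 40084692 to 40125230), the decoy receptor, had 4 and 5 counts in 4T1.2, 27 and 17 in 4T1, 0 and 0 for 66cl4, with 13 and 10 for 67NR. The groups of the pooled comparison overlapped, with 67NR between the 4T1 and 4T1.2 lines. The pooled log2 fold change of 2.91 (SE 0.82, adjusted p = 0.00988, edgeR) depends on how the absence of counts in 66cl4 is fitted, and a fit of 2 groups of 4 libraries gave 0.93 (adjusted p = 0.490, edgeR). Against a floor of 3 counts per library, Il1r2 was at least 6.07-fold higher in 4T1 and at least 3.88-fold higher in 67NR than in 66cl4 (adjusted p = 0.000324 and 0.00298, edgeR). Such bounds set the mean of the higher line against that floor and leave out counting error in the higher line. The adjusted p-values test a log2 fold change of 0 in the fit, not the bounds.

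Among receptors, the balance per gene length inverted between the lines. In each library of 4T1.2 and 4T1, Il1r1 exceeded Il1rl1 in RPKM, by 1730 and 799 times in 4T1.2 and by 1264 and 992 times in 4T1. In 66cl4, Il1rl1 exceeded Il1r1 by 4.89 and 5.41 times, and in 67NR by 47.6 and 62.3 times. Il1r1 also exceeded its accessory chain Il1rap in 4T1.2 (12.1 and 10.8 times) and in 4T1 (9.77 and 9.51 times). The reverse held in 66cl4, where Il1rap exceeded Il1r1 by 2.59 and 2.18 times, and in 67NR, by 2.53 and 3.01 times. Ratios with Il1rl1 are a description, since that gene was chosen for its pattern.

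**Figure D2:**
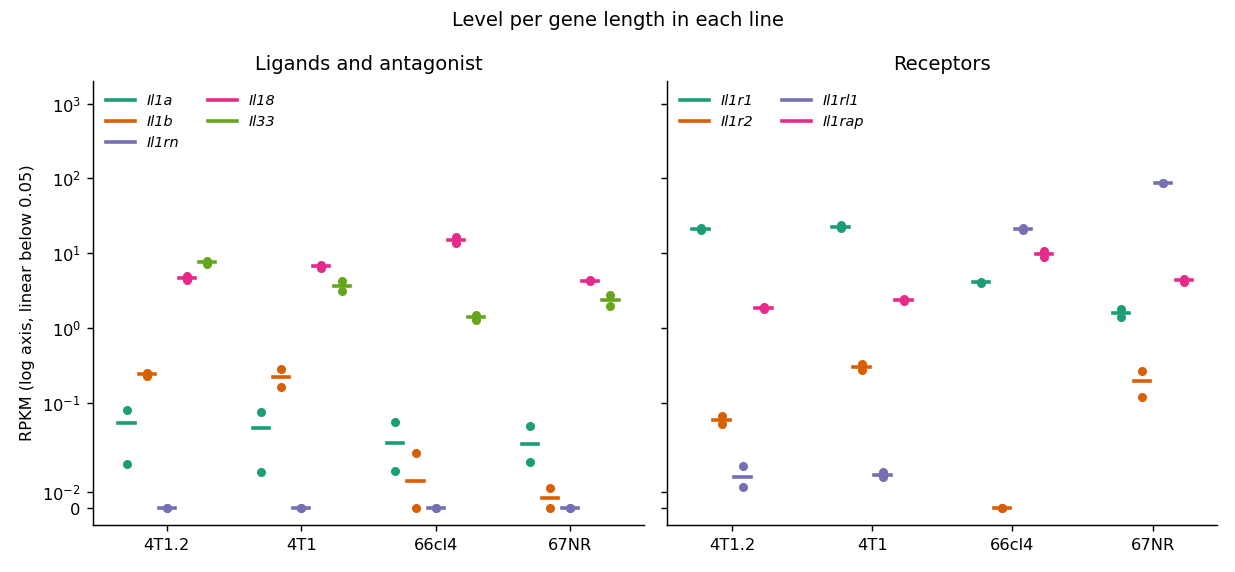
RPKM of the ligand and antagonist genes (left) and the receptor genes (right) in each line, on an axis that is logarithmic above 0.05 and linear below it, with points for libraries and short lines for the mean of 2. In 4T1.2 and 4T1 the highest receptor gene is Il1r1, at 21.0 and 22.6 RPKM, and in 66cl4 and 67NR it is Il1rl1, at 21.0 and 85.6 RPKM.

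Il33 (Entrez 77125, chromosome 19, 29925113 to 29960718), the ligand of ST2, measured 18.6 and 20.7 CPM for 4T1.2, 8.15 and 11.0 in 4T1, 3.87 and 3.32 for 66cl4, with 7.15 and 5.04 for 67NR. The libraries of 4T1.2 were highest and those of 66cl4 lowest, and 4T1/4T1.2 cells did not overlap the other lines. The pooled log2 fold change was 1.56 (SE 0.14, adjusted p = 4.64e-06, edgeR). Il33 thus had its higher levels in the lines where its receptor gene had at most 10 counts, but the ligand gene was read in all 8 libraries. 4T1.2 exceeded 4T1 by 1.04 on the log2 scale (SE 0.19, adjusted p = 0.00449, edgeR). The gap between 66cl4 and 67NR, -0.75 (SE 0.21, adjusted p = 0.0174, edgeR), lost its call without 66cl4 replicate 2 (-0.64, adjusted p = 0.103) or without 67NR replicate 1 (-0.49, adjusted p = 0.135). The gap between 4T1 and 67NR, 0.66 (SE 0.20, adjusted p = 0.0137, edgeR), lost it without 4T1 replicate 2 (0.43, adjusted p = 0.0836) or without 67NR replicate 2 (0.42, adjusted p = 0.137).

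Il18 (Entrez 16173, chromosome 9, 50554700 to 50581841), a cytokine released after cleavage by caspase-1, measured 3.80 and 4.34 CPM for 4T1.2, 5.52 and 5.98 in 4T1, 14.05 and 11.9 for 66cl4, with 3.77 and 3.66 for 67NR. The pairs of lines overlapped, because 66cl4 was highest and 67NR lowest. The pooled log2 fold change of -0.52 (SE 0.10, adjusted p = 0.00110, edgeR) therefore averages unlike lines, and it was -0.76 with an adjusted p of 0.178 in edgeR's fit of 2 groups of 4 libraries. 66cl4 exceeded 67NR by 1.80 on the log2 scale (SE 0.15, adjusted p = 1.20e-05, edgeR), 4T1.2 by 1.67 (log2 fold change of 4T1.2 over 66cl4 -1.67, SE 0.14, adjusted p = 4.24e-06) and 4T1 by 1.17 (-1.17, SE 0.14, adjusted p = 4.56e-05). Between 4T1.2 and 67NR the difference was 0.13, with a 95% interval of -0.21 to 0.47 (adjusted p = 0.452, edgeR).

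Il1b (Entrez 16176, chromosome 2, 129364569 to 129371164, minus strand) was at a low level, with 17 and 19 counts in 4T1.2, 23 and 10 in 4T1, 2 and 0 for 66cl4, with 0 and 1 for 67NR. Its libraries did not overlap between the pairs of lines. Against the floor of 3 counts per library, the mean level of 4T1/4T1.2 cells was higher by at least 4.65-fold. The fitted log2 fold change of 4.15 (SE 0.60, adjusted p = 0.000126, edgeR) is no bound. It was 2.67 with a prior count of 2 and 5.83 without 66cl4 replicate 1. Il1b shares 25 exon bases with the antisense gene Il1bos, which had at most 11 counts in a library, and reads from these genes cannot be told apart without strand. Il1a (Entrez 16175, chromosome 2, 129299609 to 129310186) had 2 to 9 counts in every library and did not pass the filter. Il1rn (Entrez 16181, chromosome 2, 24336860 to 24351491), the receptor antagonist, had 0 counts in all 8 libraries.

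Comparisons of single lines added the order within each pair. 4T1.2 and 4T1 differed in 3 of the 6 tested members (19.3% of all genes tested passed). Il33 was higher in 4T1.2, while Il18 (-0.50, SE 0.15, adjusted p = 0.0416, edgeR) and Il1r2 (-2.33, SE 0.51, adjusted p = 0.0145, edgeR) were lower. Il18 lost this call in fits without 4T1.2 replicate 1, 4T1.2 replicate 2, 4T1 replicate 2, 67NR replicate 1 or 67NR replicate 2 (adjusted p = 0.249, 0.0905, 0.127, 0.0715 and 0.0711, edgeR). It was also lost without the removal of genes by annotation (adjusted p = 0.0539), with limma-voom (0.0576), in a fit of the 4 libraries of these lines alone (0.0842) and in the test against a log2 fold change of 1 (adjusted p = 1). Il1r2 lost it without either 4T1.2 library (adjusted p = 0.0925 and 0.0678, edgeR). Il1rap was at -0.35 (SE 0.12, adjusted p = 0.0633, edgeR) between 4T1.2 and 4T1, and passed without either 66cl4 library (adjusted p = 0.0440 and 0.0433) and in a fit with the replicate number as a block (adjusted p = 0.0428).

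Against 66cl4, 6 of 6 members passed for 4T1.2 (68.9% of all genes) and 6 of 6 for 4T1 (70.1%), with Il1b, Il33, Il1r1 and Il1r2 higher and Il18 and Il1rap lower in both. These comparisons share the 66cl4 libraries. Here and against 67NR, Il1b was tested only through its counts in 4T1/4T1.2 cells, so its direction is no support. Il1r2 of 4T1.2 over 66cl4 rests on the 4 and 5 counts of 4T1.2, and its call (adjusted p = 0.0201, edgeR) was lost without 4T1.2 replicate 2, 66cl4 replicate 1 or 66cl4 replicate 2 (adjusted p = 0.0560, 0.0708 and 0.0698). Against 67NR, 5 of 6 passed for 4T1.2 (67.9%) and 5 of 6 for 4T1 (68.2%). Il1r1 was 3.74 (SE 0.14) above 67NR in 4T1.2 and 3.85 (SE 0.14) in 4T1 on the log2 scale, while Il1rap was at -1.24 (SE 0.12) and -0.89 (SE 0.12). Il1r2 was lower in 4T1.2 than in 67NR (-1.56, SE 0.58, adjusted p = 0.0389, edgeR), but not without either 4T1.2 library or 67NR replicate 1 (adjusted p = 0.135, 0.0915 and 0.201), nor with DESeq2 (adjusted p = 0.103). Between 66cl4 and 67NR, 5 of 6 passed (44.7%), with Il18, Il1r1 and Il1rap higher and Il33 and Il1r2 lower in 66cl4. Il1b, at 0 to 2 counts in those lines, gave an adjusted p of 0.655 (edgeR).

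**Figure D3:**
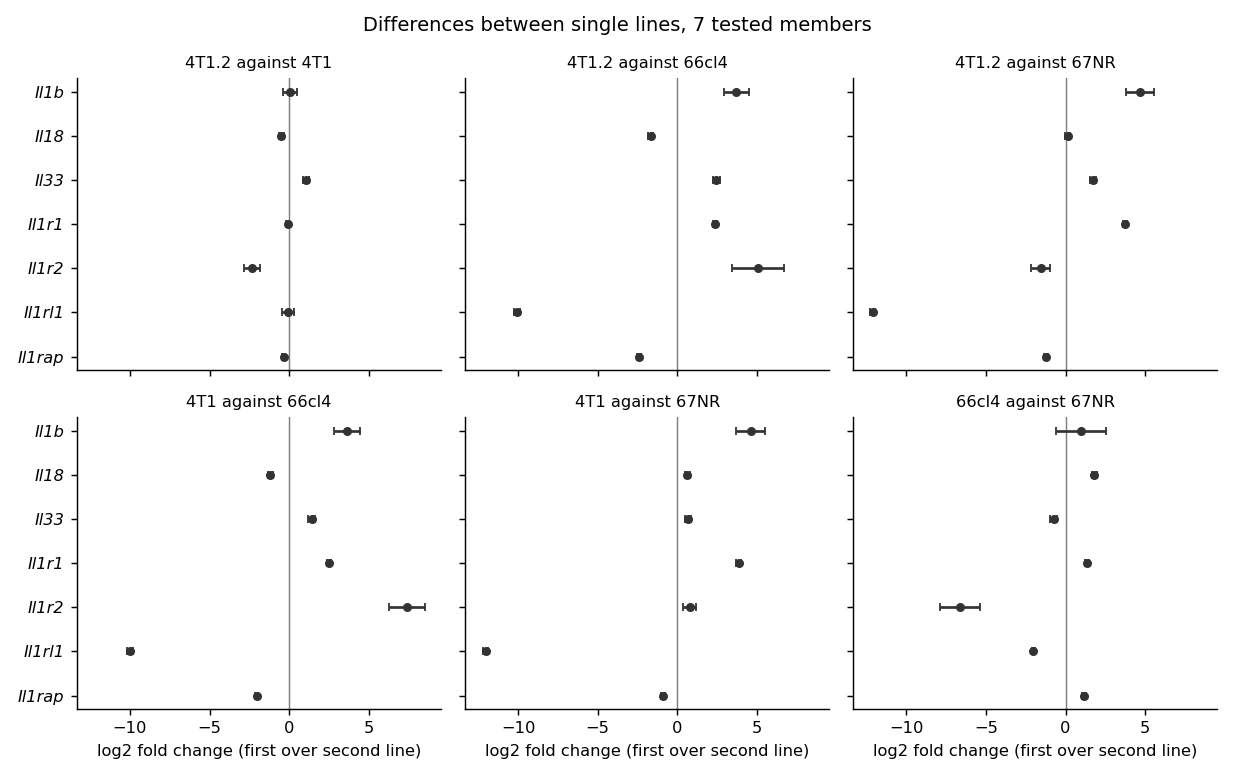
Log2 fold changes (points) with their SE (bars) of the 7 tested members in each of the 6 comparisons of single lines, first line over second. Il1rl1 lies between -12.11 and -10.01 in the 4 comparisons across the pairs and at -0.08 between 4T1.2 and 4T1; values of Il1r2 against 66cl4 and of Il1b against 66cl4 and 67NR were fitted to counts at or near 0 and are not bounds.

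The receptor genes lie in a cluster on chromosome 1, in the order Il1r2, Il1r1, Il1rl2, Il1rl1, Il18r1 and Il18rap. Il1r1 was higher in 4T1/4T1.2 cells, whereas the counts of Il1rl1, Il18r1 and Il18rap were higher in 66cl4 and 67NR. Il1r1 begins 137.8 kb after the start of Il1r2 and Il1rl1 320.2 kb after it. Il1rl2, the IL-36 receptor gene between them, had at most 2 counts in a library. Il18rap, 110.5 kb beyond the start of Il1rl1, had 20 and 30 counts in 4T1.2, 186 and 88 in 4T1, 1434 and 1219 for 66cl4, with 2214 and 3501 for 67NR. Its order across the lines, apart from 4T1 above 4T1.2, was that of Il1rl1, and its pooled log2 fold change was -5.30 (SE 0.16, adjusted p = 9.92e-10, edgeR). Il18r1, which encodes the IL-18-binding chain and lies between Il1rl1 and Il18rap, had 0 or 1 counts per library in 4T1/4T1.2 cells and 3 to 10 in the others, at least 2.07-fold higher in the latter against the floor of 3 counts, and was not tested. Beyond the cluster, Mfsd9 was at -0.68 (adjusted p = 0.000333, edgeR) and Map4k4, on the other side, at 0.74 (adjusted p = 6.05e-06, edgeR).

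**Figure D4:**
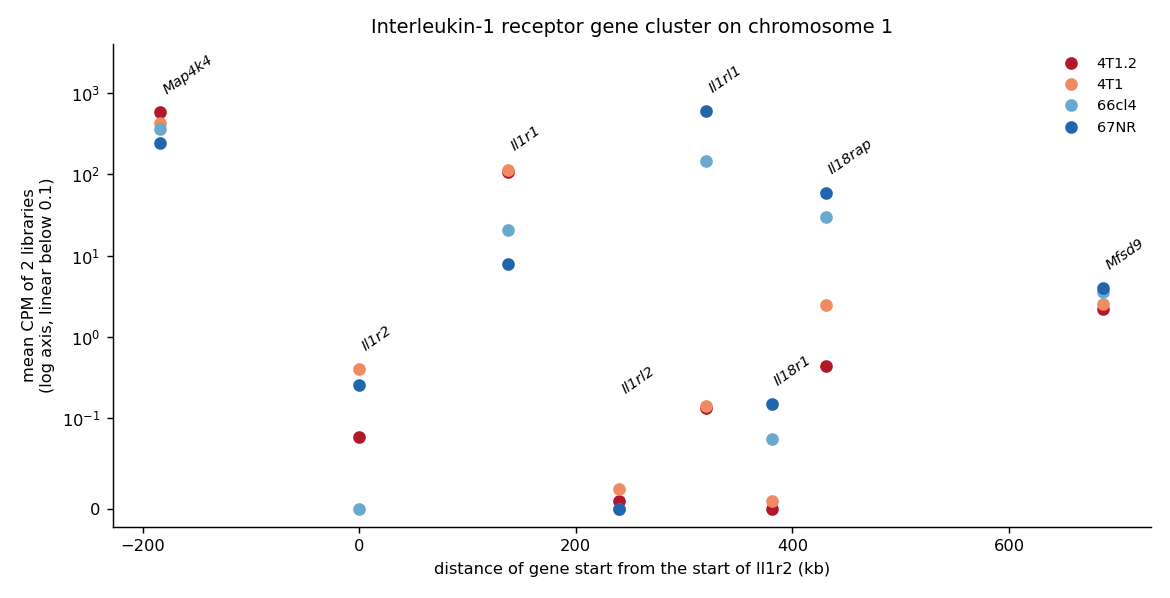
Mean CPM of 2 libraries per line (logarithmic axis, linear below 0.1) of the genes with counts in the receptor cluster and its flanks, against the distance of each gene start from that of Il1r2 in kb. Il1rl1 and Il18rap are high in 66cl4 and 67NR, at 146 and 596 CPM and at 29.4 and 58.6 CPM, while Il1r1, at 137.8 kb, is high in 4T1.2 and 4T1.

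Of the other IL-1 family ligand and binding protein genes, 5 of 6 had at most 10 counts in every library, which left Il18bp, the soluble inhibitor of IL-18, at -0.29 (SE 0.16, adjusted p = 0.122, edgeR) in the pooled comparison. Of 6 further receptor genes, 2 were tested. Beside Il18rap, Sigirr, an inhibitory receptor of the family, measured 91.7 and 95.4 CPM for 4T1.2, 154 and 173 in 4T1, 85.3 and 84.1 for 66cl4, with 98.3 and 108 for 67NR, so the groups overlapped and 4T1 stood highest (pooled log2 fold change 0.40, SE 0.07, adjusted p = 0.000276, edgeR). The median of these 2 genes was -2.45. The lists of pathway genes were written with earlier results of these libraries known.

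The tested adaptors and kinases downstream of the receptors were read in all lines, whereas Irak3 and Peli2 had at most 3 and 1 counts in a library. Of 16 genes 14 were tested, with 3 higher in 4T1/4T1.2 cells, 6 lower and 5 that did not pass (median -0.15), where 76.7% of all genes tested passed. Ikbkg, the regulatory subunit of the IkappaB kinase, was at -1.88 (SE 0.06, adjusted p = 1.01e-09, edgeR), but shares 418 exon bases with G6pdx on the opposite strand. Chuk, a catalytic subunit of that kinase, was at -1.67 (SE 0.07, adjusted p = 7.84e-09, edgeR), with 46.6 to 57.6 CPM in 4T1/4T1.2 cells against 116 to 216 in the other lines. Peli1, a ubiquitin ligase of the pathway, was at 0.63 (adjusted p = 7.87e-06) and Tab1, which activates the kinase TAK1, at -0.39 (adjusted p = 0.000471). Ikbkb, the other catalytic subunit, had a value of -0.15 (adjusted p = 0.0679), and Map3k7, which encodes TAK1, also had -0.15 (adjusted p = 0.0611).

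Of 10 genes that process or release IL-1 family cytokines, 8 were tested, 3 were higher, 3 lower and 2 did not pass (median -0.01), again beside 76.7% of all genes tested. Aim2, a DNA sensor that activates caspase-1, had 1981 and 3415 counts in 67NR against 6 to 83 in every other library, so that its pooled log2 fold change of -2.29 (SE 0.23, adjusted p = 7.84e-06, edgeR) rests on 1 line. Casp4, a caspase that senses bacterial lipopolysaccharide, was at -1.25 (adjusted p = 1.09e-05), Casp8 at 1.10 (adjusted p = 2.14e-07) and Capn1, a calpain protease, at 0.59 (adjusted p = 8.01e-06). Capn2 (-0.04, adjusted p = 0.485) and Nlrp3, an inflammasome sensor (0.03, adjusted p = 0.905), did not pass. Capn1 and Capn2 share exon bases with predicted antisense genes. Pycard, which links such sensors to caspase-1, had 4 to 10 counts in every library.

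Among 20 genes that IL-1 is known to induce, 17 were tested, 12 had higher levels in 4T1/4T1.2 cells (38.1% of all genes tested) and 5 lower ones (38.6%), with a median log2 fold change of 2.83 against -0.01 over all genes. This list holds Csf3, a gene the study followed in these lines, and is not independent evidence of a direction. Ccl20 and Csf2, with at most 1 and 6 counts in a 66cl4 or 67NR library, passed the filter only through 4T1/4T1.2 cells. The 5 lower ones were Ptgs2, Ptges, Nfkbiz, Zc3h12a and Cxcl5. Ptges, for example, had mean CPM of 109 in 4T1.2 and 82.2 in 4T1, but 289 in 66cl4 and 327 in 67NR. Ccl20, a chemokine, had 102 and 100 counts in 4T1.2, 553 and 469 in 4T1, and 0 or 1 in each other library. Against the floor of 3 counts per library its pooled level was at least 86.2-fold higher. The fitted difference had an adjusted p of 4.44e-09 (edgeR). Taken singly, 4T1.2 was at least 26.7-fold above 66cl4 and 27.3-fold above 67NR, and 4T1 at least 144-fold and 147-fold. Mmp3, a matrix metalloproteinase, had 1683 ± 57.2 CPM in 4T1.2, 1361 ± 55.2 in 4T1, but 8.43 ± 0.0133 for 66cl4 and 12.6 ± 0.182 for 67NR (mean ± SD, n = 2), a pooled log2 fold change of 7.20 (SE 0.08, adjusted p = 6.69e-12, edgeR). Icam1, an adhesion molecule for leucocytes, was at 5.16 (SE 0.15, adjusted p = 6.77e-10) and Csf3, which encodes G-CSF, at 4.59 (SE 0.15, adjusted p = 1.47e-09). Icam1 shares exon bases with a predicted antisense gene. Tested against a log2 fold change of 1 in place of 0, 10 of the 17 passed.

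**Figure D5:**
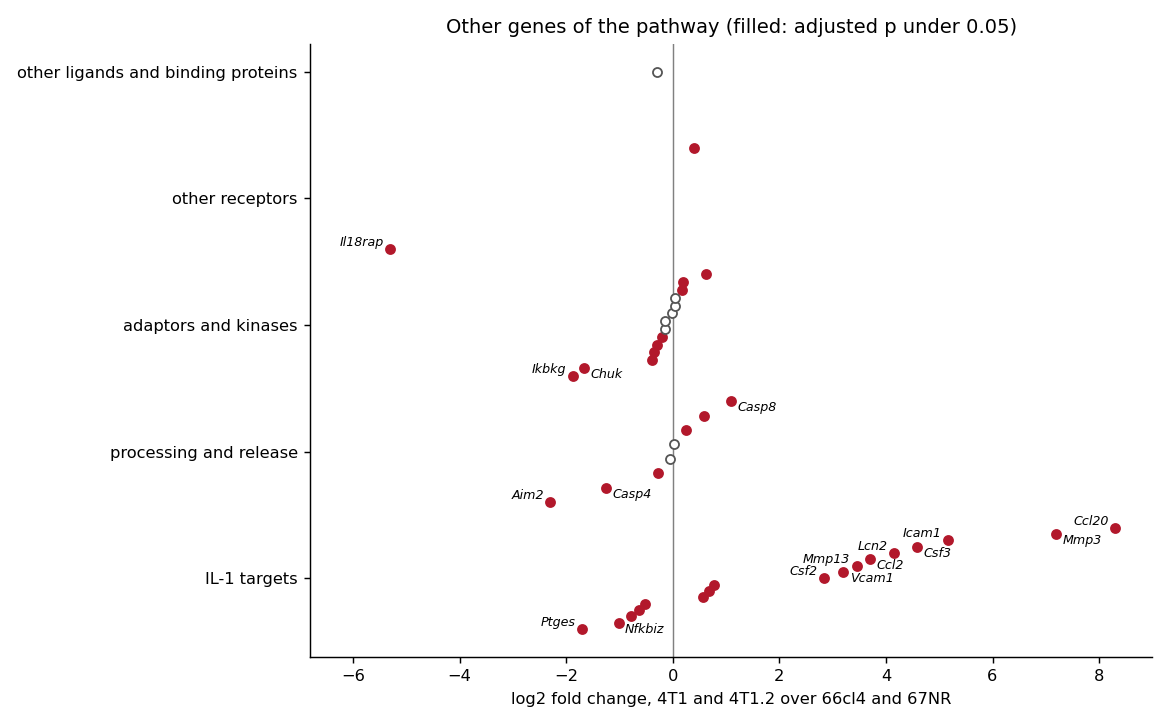
Pooled log2 fold change (4T1 and 4T1.2 over 66cl4 and 67NR) of each tested gene in 5 lists, spread vertically within a list to separate points, filled where the adjusted p was under 0.05 and named beyond 1 in either direction. The 17 IL-1 target genes reach 8.31 for Ccl20, a value fitted to counts of 0 or 1 in 66cl4 and 67NR that is no bound, whereas 12 of the 14 adaptors and kinases lie between -0.39 and 0.63.

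Markers of other cell types were read beside the members, since ST2 is a marker of mast cells and some lymphocytes. Of 7 mast cell markers, 6 had at most 10 counts in every library, and Kit, Mcpt4, Tpsb2, Fcer1a and Ms4a2 had 0. Their summed level was 0.367 to 1.13 CPM in 4T1/4T1.2 cells and 0.491 to 0.819 in the other lines, nearly all of it from Hdc. Of 9 leucocyte markers, 5 had at most 10 counts, including Ptprc, the pan-leucocyte marker CD45 (0 to 2 counts), and Adgre1 (0 counts). Their sum was 8.45 to 13.4 CPM in 4T1/4T1.2 cells and 19.5 to 25.9 in the others. Lyz2, a lysozyme of myeloid cells, moved with Il1rl1, with 0 to 4 counts in 4T1/4T1.2 cells and 791 to 1387 in the other lines. The other 3 tested leucocyte markers, S100a8 (log2 fold change 5.67), Itgam (2.04) and Cd68 (0.97), were higher in 4T1/4T1.2 cells, as were 38.1% of all genes tested. The part of these markers in the result was not tested. The 4 endothelial markers summed to 0.829 to 3.68 CPM in 4T1/4T1.2 cells and 0.335 to 0.442 in the others.

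Epithelial markers were higher in the lines with more Il1r1 and less Il1rl1 and Il1rap, while mesenchymal markers went in both directions. Of 5 epithelial markers, 5 were higher in 4T1/4T1.2 cells, where 38.1% of all genes tested were higher. Their summed level was 1474 to 2888 CPM against 464 to 720 CPM, nearly all of it from Krt8 and Krt18. Epcam, which marks epithelial cells, had 0 or 1 counts in 66cl4 and 67NR. Epcam and Cdh1 passed the filter only through 4T1/4T1.2 cells, and Krt14 had at most 42 counts in a library. Of 3 mesenchymal markers, 4T1/4T1.2 cells had more of 1 (Vim) and less of 2 (Fn1 and Cdh2), beside 38.1% and 38.6% of all genes tested. The 3 summed to 5318 to 7349 CPM in 4T1/4T1.2 cells against 2963 to 5161 CPM in the other lines. Cdh2, N-cadherin, had 0 or 1 counts per library in 4T1/4T1.2 cells, where the others had 2975 to 5099. The part of this difference in the members' values was not tested.

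The genes most like each member were named by the root mean square difference of centred log2 CPM over the 8 libraries, a measure on which 0 is an identical pattern. For Il1rl1 these were Eda2r (0.51), Bcat1 (0.61), Grem1 (0.67), Nova1 (0.69) and Armcx2 (0.78), which lie on chromosomes X, 6, 2, 12 and X. Their means were at most 0.0265 CPM in 4T1.2 and 4T1, 22.1 to 85.1 in 66cl4 and 60.8 to 114 in 67NR. For Il1r1 the nearest gene was Miga1 (0.14), for Il1rap Ccdc17 (0.12), for Il33 Mmd (0.22) and for Il18 Acy3 (0.16). Il1b was nearest to Rhox4g (0.26) and Il1r2 to Arhgap30 (0.43), at counts of at most 23 and 39 in a library for the 2 matches.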

How the data were processed

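RNA-seq libraries were made with the TruSeq RNA v2 kit from total RNA. The authors aligned reads to mm10 (GRCm38) with Rsubread and counted them per Entrez gene with featureCounts, and the deposited values are raw counts. Whether the counting used strand is not given in the sources used here. The labels spell 66cl4 with a digit, and the study's spelling was used. The endothelial cell RNA-seq was not analysed here.

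Of 27179 Entrez identifiers, 25275 (93.0%) had an entry in a gene table of GRCm38. After edgeR's filterByExpr (15269 genes), removal of unmatched identifiers, ribosomal genes and predicted genes left 13925. A mean per line was fitted to 8 libraries with edgeR 4.0.16 (limma 3.58.1, R 4.3.3): legacy quasi-likelihood fit, TMM, prior count 0.125, 4 residual degrees of freedom, biological coefficient of variation 9.74%. SEs were derived from the F statistic. The scripts were tested on simulated data. Folds against a group with no library above 3 counts are bounds, taken at 3 counts per library. They use the mean level of the higher group and leave out its counting error. The spread between replicates exceeded the sampling noise of their counts in each line.

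The members and lists were chosen with earlier results of these data known. The genes named are the members, per list up to 4 passing genes with the largest pooled change and up to 2 that did not pass, the genes most alike and the neighbours. Il18r1, Il1rl2, Pycard, the IL-1 targets named as lower and the markers named were added after their values were seen. Alternatives were DESeq2 size factors, no filter, keeping genes with 10 or more counts throughout, keeping the genes removed by annotation, robust estimation, the newer quasi-likelihood fit, limma-voom, DESeq2 1.42.0, testing for more than a log2 fold change of 1, raising the prior count to 2, using 4 libraries alone, 2 groups of 4 libraries, a replicate block and leaving out each library. Figures were drawn with matplotlib 3.10.9.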

Additional observations from a re-analysis of the deposited data

How the results depend on the processing

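Across all 13925 genes tested, 10686 passed in the pooled comparison, and 3622 when tested against a log2 fold change of 1. Under that test 19 calls of members in comparisons of single lines were left of 30, 5 of 17 calls among other family and pathway genes, and 10 of 17 among IL-1 targets. A fit of 2 groups of 4 libraries left 11 of the 17 family and pathway calls. Members passing in the pooled comparison fell from 6 to 4 with at least 10 counts in every library. That filter removed Il1b and Il1r2 before testing, and the 4 members left all passed. Members passing also fell to 4 under the test against a log2 fold change of 1 and with 2 groups of 4 libraries. In no other setting did any of these counts move by over 1.5 times. Il1b changed sign between 4T1.2 and 4T1 without 4T1.2 replicate 2 (-0.03) or 4T1 replicate 2 (-0.25), with a range of -0.25 to 0.55 over the left-out libraries. Between 66cl4 and 67NR it did so without 66cl4 replicate 1, with a range of -2.38 to 3.30. None of these Il1b differences passed. Of the other values of single members that changed their call, those that a left-out library ended are given with the gene, and the cause was not tested.

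With the replicate number as a block, 10798 genes passed in the pooled comparison, with 6 members, 18 family and pathway genes, 17 targets and 31 calls of members between single lines. Same-numbered replicates correlated between -0.12 and 0.27 in their deviations. With 2 replicates per line, these correlations do not settle whether the numbers pair the samples. Low counts limit Il1a, Il1b, Il1r2 and Il18r1, and Il1rl1 in 4T1 and 4T1.2.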
